A study of Mus musculus with 8 samples.

Results

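The set described here held 10 transcription factors of endothelial and blood-forming cells: the SoxF genes Sox7, Sox17 and Sox18, the ETS genes Erg, Fli1, Ets1 and Etv2, the basic helix-loop-helix genes Tal1 and Lyl1, and the zinc finger gene Gata2. It was drawn by gene symbol from 55291 genes of a count table of the E10.5 mouse ventricle, and it was chosen by known function together with the higher Sox17 level in the knockout, so the knockout against control values of its members are a description, and a member called in the fit over all genes is named as such without being read as a test of the set. All 10 members were found, and all 10 passed the filter of at least 8 counts in total that left 26820 genes for testing. Bulk polyA RNA was sequenced from ventricular tissue of Pkn2 fl/fl ; XMLC2-Cre+ embryos (cKO, n = 4) and of Pkn2 fl/fl ; Cre- littermates (control, n = 4), all at E10.5, untreated, and kept on C57BL/6N. Both groups thus carried homozygous floxed Pkn2, a protein kinase gene, and differed in a Cre that recombines in cardiomyocytes. The driver acts in cardiomyocytes, whereas the members are known from the endothelial, endocardial and blood cells of the heart.

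SoxF proteins bind DNA through a high-mobility-group box and act in endothelial specification, arterial identity and lymphatic development. ETS proteins recognise a short GGAA core that is found in the control regions of most endothelial genes, and Etv2 acts early and briefly in the founding of the blood and vessel lineages. Tal1 and Lyl1 are close paralogs that work with Gata factors and the adaptor Lmo2 in blood progenitors, and Tal1 also acts in the endocardium.

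The TPM table placed the members on GRCm38. Sox7 (ENSMUSG00000063060) spans chr14:63943673-63950732 on the plus strand, Sox17 (ENSMUSG00000025902) chr1:4490931-4497354 on the minus strand, and Sox18 (ENSMUSG00000046470) chr2:181669836-181671640 on the minus strand. Erg (ENSMUSG00000040732) spans chr16:95359169-95586593 on the minus strand and Etv2 (ENSMUSG00000006311) chr7:30633616-30635852 on the minus strand. Fli1 (ENSMUSG00000016087, chr9:32422204-32541595, minus strand) and Ets1 (ENSMUSG00000032035, chr9:32636248-32757820, plus strand) are neighbours that point away from each other, with 94652 bases between them. Tal1 (ENSMUSG00000028717) spans chr4:115056426-115071755, Lyl1 (ENSMUSG00000034041) chr8:84701482-84704940 and Gata2 (ENSMUSG00000015053) chr6:88193891-88207032, all on the plus strand. The last 229 bases of Lyl1 are shared with Nfix on the opposite strand, and reads of the overlap cannot be told apart without strand. Nfix held 1736 counts over the 8 libraries and Lyl1 7608.

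The sequences before the start sites of Tal1 and Lyl1 are shown because these are a paralog pair within the set and because letters of the ETS and GATA motifs occurred there. They are from RefSeq on GRCm38.p6, plus strand, with the matches in capitals: in Tal1 the GATA motif AGATAA, and in Lyl1 the ETS motif CCGGAA.
Tal1, chr4:115056176-115056425: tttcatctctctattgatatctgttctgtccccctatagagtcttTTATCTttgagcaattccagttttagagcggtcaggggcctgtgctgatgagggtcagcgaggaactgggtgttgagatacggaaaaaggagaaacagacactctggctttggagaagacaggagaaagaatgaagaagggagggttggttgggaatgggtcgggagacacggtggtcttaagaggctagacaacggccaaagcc
Lyl1, chr8:84701207-84701422: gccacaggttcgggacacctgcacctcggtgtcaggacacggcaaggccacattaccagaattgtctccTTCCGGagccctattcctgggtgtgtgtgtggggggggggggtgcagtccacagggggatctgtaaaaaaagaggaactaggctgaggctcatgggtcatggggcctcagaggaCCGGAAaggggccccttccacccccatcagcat
The match in Tal1 reads on the minus strand, 205 bases before the start site. Lyl1 held 1 match on the minus strand, 181 bases before the RefSeq start site, and 1 on the plus strand, 67 bases before it. Of 32851 windows of 250 bases before RefSeq start sites, 12.03% held CCGGAA and 9.99% held AGATAA on either strand. The SOX motifs ACAATG and ACAAAG, held by 10.69% and 16.46% of the windows, and the E-box motifs CAGATG and CAGCTG, held by 14.44% and 13%, were searched in the same way and occurred in neither stretch. None of the 6 motifs occurred in the stretches before Erg (chr16:95586601-95586843) and Gata2 (chr6:88193641-88193890). A match of 6 letters describes the sequence and does not show a bound site.

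Libraries held 47559845 to 56660938 counts. Levels are given as CPM (counts after TMM scaling of the libraries) where a gene is compared between libraries, and as TPM (transcript abundance scaled by length) where genes are compared with each other. Pkn2 gave 77.6 to 84.3 CPM in cKO and 133 to 153 CPM in control libraries, and its log2 fold change was −0.83 (SE 0.060). The tissue label was matched by cardiomyocyte markers, of which the 14 listed summed to 58656 to 60834 TPM in cKO and 58084 to 61731 TPM in control libraries. The 13 endothelial markers summed to 1031 to 1359 TPM in cKO and 793 to 956 TPM in controls.

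In control ventricles the members spanned a 22.3-fold range per length. Ets1, an ETS factor of many embryonic mesodermal cells, was highest at 43.0 ± 2.88 TPM, and Sox17, known for arterial endothelium and endoderm, was lowest at 1.93 ± 0.58 TPM (SD, n = 4). Lyl1 (15.4 ± 0.97 TPM), Sox18 (14.7 ± 1.30), Erg (14.4 ± 1.59), Sox7 (14.3 ± 0.98) and Tal1 (14.2 ± 2.49) followed Ets1, and each overlapped with the next of these 5 in its 4 control values. Gata2 (9.32 ± 0.82 TPM) and Fli1 (8.97 ± 0.43 TPM) also overlapped with each other. Etv2, at 6.18 ± 0.61 TPM, was below Fli1 and above Sox17 in every control library.

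**Figure D1:**
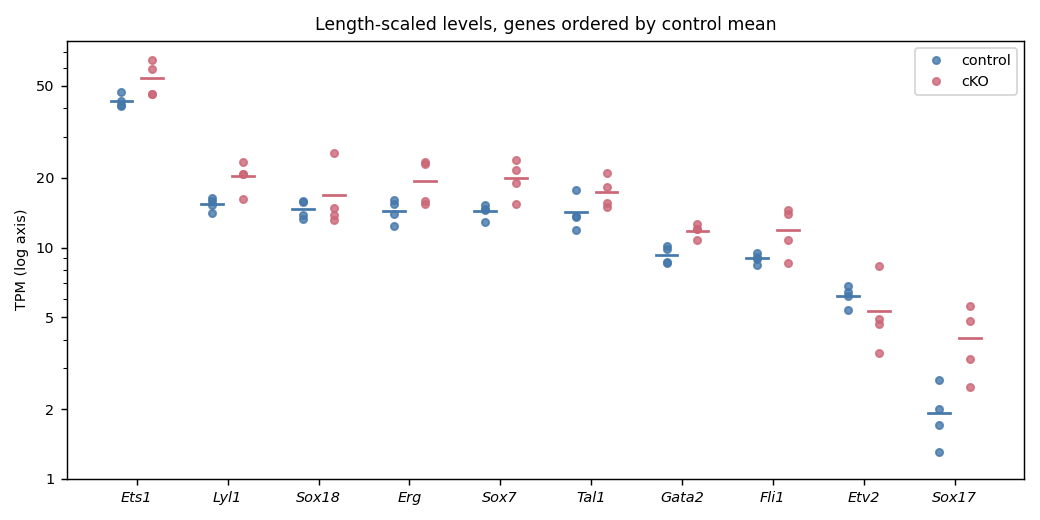
TPM (log axis) of the 10 members in 4 control and 4 cKO libraries, with genes ordered by the control mean. Points are libraries and bars are group means. Ets1 lies above every other member and Sox17 lies lowest, at 1.93 TPM in controls and 4.05 TPM in cKO.

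Of the 10 members, 9 had a higher mean in cKO and 1, Etv2, a lower one. The median log2 fold change was 0.35, against −0.00085 over all genes tested, of which 49.8% were higher. In the quasi-likelihood fit of edgeR, with Benjamini-Hochberg adjusted p-values over all 26820 genes, Sox7, Sox17 and Lyl1 passed an adjusted p of at most 0.05, all 3 higher in cKO, where 0.858% of all genes passed and 0.515% passed as higher. All 4 cKO libraries lay above all 4 controls in CPM for 5 members (Sox7, Sox17, Ets1, Lyl1 and Gata2), as they did for 3.14% of all genes tested. In TPM the groups of Sox17, Ets1 and Lyl1 overlapped. These counts come from the contrast that the choice of the set used. The set's values were not even among the cKO libraries: cKO 1 and cKO 4 were the highest 2 of the 4 for 7 members. In bulk tissue, more cells of a type and more RNA of a gene per cell cannot be told apart.

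**Figure D2:**
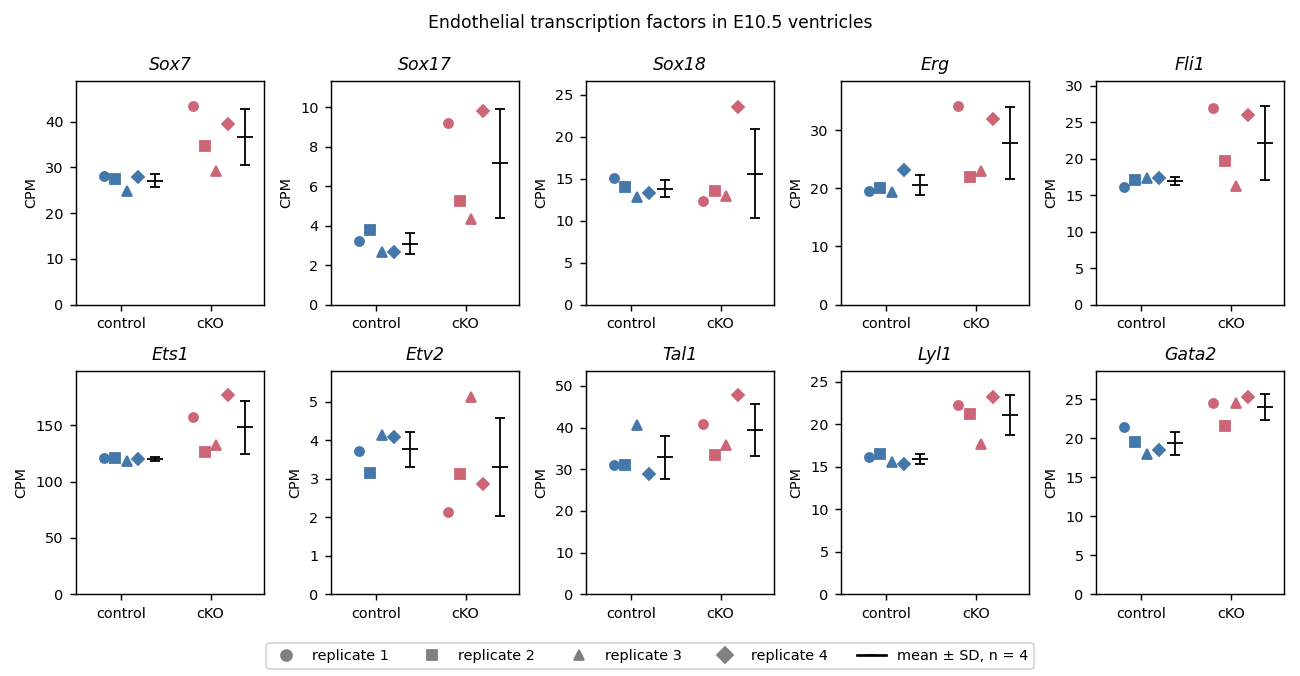
CPM of each member in the 8 libraries, with replicate numbers as symbols and mean ± SD (n = 4) beside the points. Every axis starts at 0. For Sox17 the cKO libraries reach from 4.33 to 9.82 CPM and the controls from 2.64 to 3.80 CPM, with cKO 1 and cKO 4 on top.

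Sox17 had the largest fold of the set and was the only member past 1.5-fold. Its cKO libraries 1 to 4 held 9.23, 5.28, 4.33 and 9.82 CPM, and its control libraries 1 to 4 held 3.22, 3.80, 2.69 and 2.64 CPM. The groups did not overlap, and cKO 1 and cKO 4 were well above cKO 2 and cKO 3. The mean was 7.16 ± 2.76 CPM in cKO and 3.09 ± 0.54 CPM in controls, a 2.33-fold difference (log2 fold change 1.22, SE 0.23). The gap between cKO 3 and control 2 was narrow, and in TPM these libraries changed places, at 2.49 and 2.69 TPM. The log2 fold change of Sox17 lay between 1.03 and 1.40 with each library left out in turn, and it no longer passed the threshold without cKO 1, control 1, control 3 or control 4.

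Sox7, the SoxF gene of early blood and vessel progenitors, was also higher in cKO. It held 43.4, 34.7, 29.2 and 39.4 CPM in cKO 1 to 4 and 28.0, 27.5, 24.9 and 27.9 CPM in control 1 to 4. The groups did not overlap, although cKO 3 was close to the highest control. The log2 fold change was 0.44 (SE 0.098), from 36.7 ± 6.15 CPM in cKO and 27.1 ± 1.49 CPM in controls. Sox7 kept its place past the threshold only without cKO 2 or cKO 3, of the 8 libraries left out in turn.

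Sox18, a gene of developing vessels and lymphatics, did not share this pattern. It held 12.4, 13.5, 13 and 23.5 CPM in cKO 1 to 4 and 15.1, 14, 12.8 and 13.3 CPM in control 1 to 4. The cKO 4 library stood above the rest, cKO 1 was below every control, and the other cKO libraries lay within the control range. The log2 fold change of 0.18 (SE 0.16) became −0.084 without cKO 4. That library also had the highest score of the 7 venous and lymphatic markers, 0.54, where the other cKO libraries had −0.27 to 0.03 and the controls −0.08 to 0.04 (mean log2 CPM relative to the control mean), and the part of these cells in its Sox18 level was not tested.

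The makeup of the SoxF family by TPM differed between libraries. Sox17 made up 9.70% ± 1.64 of the summed SoxF TPM in cKO and 6.17% ± 1.45 in controls, with cKO 3 (7.83%) below control 2 (7.98%). Sox18 made up 31.5% in cKO 1, 40.0% in cKO 2, 43.5% in cKO 3 and 48.4% in cKO 4, against 46.7% to 48.6% in controls. Sox7 took the largest share in cKO 1, 57%, and the smallest in cKO 4, 40.9%, with controls from 45.2% to 48.9%.

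Among the ETS genes, Ets1 held 157, 126, 132 and 177 CPM in cKO 1 to 4, and 121, 121, 118 and 119.7 CPM in control 1 to 4. All cKO libraries were above the controls in CPM, while in TPM cKO 2 (46.1) and cKO 3 (46.0) were below control 2 (47.1), and the log2 fold change was 0.31 (SE 0.085). Erg, a factor that maintains endothelial junctions and identity, held 34.1, 22.0, 23.0 and 32.0 CPM in cKO and 19.5, 20.1, 19.4 and 23.1 CPM in controls. Here cKO 2 and cKO 3 lay within reach of control 4, the highest control, and only cKO 1 and cKO 4 were clear of the control range. The log2 fold change of Erg was 0.44 (SE 0.12). Fli1, a close relative of Erg, held 26.9, 19.7, 16.3 and 25.9 CPM in cKO and 16.2, 17, 17.4 and 17.3 CPM in controls. Its cKO 3 value fell between the controls, and its log2 fold change was 0.39 (SE 0.12).

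Etv2 held 2.14, 3.12, 5.12 and 2.87 CPM in cKO 1 to 4 and 3.71, 3.15, 4.13 and 4.09 CPM in control 1 to 4. It ran against the other members within the cKO group: cKO 1, cKO 4 and, by a small margin, cKO 2 were below every control and cKO 3 was above every control. The log2 fold change of −0.19 (SE 0.22) was smaller than its error, and it was 0.14 without cKO 1 and cKO 4, a comparison added after these libraries had been seen to stand apart. As a share of the summed TPM of the 4 ETS genes, Etv2 made up 6.17% ± 3.12 in cKO and 8.56% ± 1.21 in controls. Ets1 made up 59.5% ± 0.88 and 59.2% ± 1.80, and the summed level of the 4 genes was 77.0 to 107 TPM in cKO and 69.1 to 77.3 TPM in controls.

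Lyl1 was, with Sox7 and Sox17, among the 3 members called in that fit. It held 22.3, 21.2, 17.7 and 23.2 CPM in cKO 1 to 4 and 16.2, 16.5, 15.6 and 15.3 CPM in control 1 to 4. The groups did not overlap in CPM, but in TPM cKO 3 (16.26) was just below control 2 (16.34). Its log2 fold change was 0.41 (SE 0.086), between 0.37 and 0.48 with each library left out, and it passed the threshold in 1 of these 8 fits, that without cKO 3. Gata2, which acts in blood stem cells and endothelium, held 24.5, 21.6, 24.6 and 25.3 CPM in cKO and 21.4, 19.5, 18.0 and 18.6 CPM in controls. The lowest cKO library, cKO 2, was just above the highest control, control 1, and the cKO libraries were the most even of the set. The log2 fold change of Gata2 was 0.31 (SE 0.078).

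Tal1 held 40.8, 33.4, 35.8 and 47.7 CPM in cKO 1 to 4 and 31.0, 31.1, 40.5 and 28.8 CPM in control 1 to 4. The groups overlapped because control 3 was above cKO 2 and cKO 3 and close to cKO 1. The score of 10 erythroid markers was also highest among the controls in control 3, at 0.95, where the other controls had −0.56 to 0.09, and Tal1 is a red cell factor as well as an endocardial one. The part of erythroid cells in the Tal1 values was not tested. Its log2 fold change was 0.26 (SE 0.11).

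The levels of most members moved with those of the endothelial markers. All 13 of those markers were higher in cKO, 5 of them past the threshold (0.515% of all genes passed as higher) and 7 without overlap (3.14% of all genes), with a median log2 fold change of 0.37. DESeq2 called 12 of them, edgeR without a filter 11, and edgeR 0 without cKO 1 or without any 1 of the 4 controls. Their score was 0.63, 0.24, 0.20 and 0.67 in cKO 1 to 4, and −0.18 to 0.09 in controls. When this score was subtracted from the log2 CPM of each member, 7 members differed by −0.17 to −0.01 between the group means. These were Sox7, Erg, Lyl1, Fli1, Gata2, Ets1 and Tal1.

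The remaining 3 members departed further from the endothelial score. Sox17 was 0.95, 0.54, 0.30 and 1.0 above the control mean relative to the score in cKO 1 to 4, and the controls lay at 0.01, 0.28, 0.00 and −0.29. Its group means differed by 0.70 (SD 0.34 in cKO and 0.23 in controls), with cKO 3 just above control 2. Sox18 differed by −0.31 (SD 0.36 and 0.10) and Etv2 by −0.68 (SD 0.73 and 0.25), each with 3 cKO libraries below all controls. Against the 7 endocardial markers, which varied less between libraries, the difference was 1.01 for Sox17, −0.0035 for Sox18 and −0.38 for Etv2, and the other 7 members then differed by 0.13 to 0.29. In their group means the 7 other members lay below the endothelial reference and above the endocardial one. Of these, only Ets1 differed from the endothelial score by more than its SD in both groups (−0.14, SD 0.078 in cKO and 0.11 in controls). Sox7 (−0.013, SD 0.12 and 0.044) and Erg (−0.024, SD 0.10 and 0.12) lay close to that score.

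**Figure D3:**
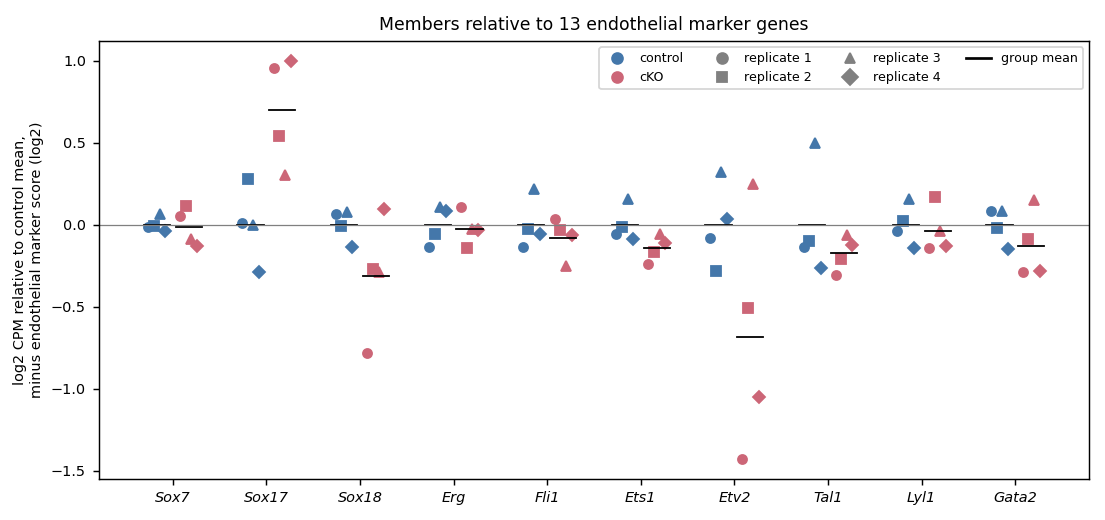
Log2 CPM of each member relative to its control mean, minus the score of 13 endothelial markers in the same library. Points are libraries, symbols are replicate numbers and bars are group means. Sox17 is the member whose cKO libraries all lie above its controls, with a difference of 0.70 between the means.

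Blood and macrophage markers moved with cKO 1 and cKO 4 as well. The macrophage score over 7 genes was 2.46, 1.08, 0.78 and 1.82 in cKO 1 to 4, and −0.35 to 0.71 in controls. All 11 listed macrophage markers were higher in cKO, 2 of them past the threshold (C1qb and C1qc), from a summed level of 6.92 to 16.0 TPM in controls and 15.8 to 46.2 TPM in cKO. The blood progenitor score was 1.32, 0.53, 0.26 and 1.30 in cKO 1 to 4 and −0.20 to 0.51 in controls, with 8 of 8 markers higher and 1, Cd34, past the threshold. Cd34 was the most abundant of these, at 73.6 CPM in controls, where Kit held 20.6 CPM and Ptprc 0.26 CPM. How much of the Cd34 level came from blood progenitors and how much from other cells was not tested. Itga2b was in both this list and the megakaryocyte list, so their scores share a gene. The megakaryocyte score was 1.02, 0.59, 0.15 and 1.80 in cKO and −0.41 to 0.79 in controls, with 10 of 10 listed markers higher, 8 of them at an unadjusted p under 0.05, and 0 past the threshold by edgeR or DESeq2. Without a filter edgeR called 8 of the megakaryocyte markers, and it called 5 without cKO 3 and 3 without control 2. It called 0 macrophage markers without cKO 1, control 3 or control 4 and 7 without cKO 3, and 0 blood progenitor markers without control 1 or control 4 and 4 without cKO 3. Control 2, the highest control for Sox17, was also the highest control for all 3 of these scores. The part of these cells in the values of Sox17, Lyl1, Tal1 and Gata2 was not tested.

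The 10 erythroid markers were also higher in cKO on average, with 0 past the threshold and 0 at an unadjusted p under 0.05 by edgeR, and 0 called by DESeq2. That count rested on control 3, without which 9 of the 10 had an unadjusted p under 0.05, all higher in cKO, with 0 past the threshold. They summed to 4297 to 14879 TPM in cKO and 4777 to 13955 TPM in controls, and their score was highest in cKO 4 (1.03) and control 3 (0.95). Foregut endoderm, another site of Sox17 expression in the embryo, was covered by 10 listed markers, of which Krt8 (56.8 CPM in cKO and 45.7 CPM in controls) and Krt18 (33.5 and 37.3 CPM) were the 2 with a mean of at least 1 CPM. Of the 8 foregut markers tested, 1 was higher in cKO and 7 were lower, with a median log2 fold change of −0.73. Krt8 was highest in cKO 4, at 75.7 CPM, and next in cKO 2, at 68.0 CPM. Of the others, Foxa2 held 0.03 CPM in cKO and 0.05 CPM in controls, Epcam 0.39 and 0.62 CPM, and Foxa1 and Nkx2-1 had too few counts to be tested. Cardiomyocyte markers were higher for 4 of 14 genes (median log2 fold change −0.06) and epicardial markers for 2 of 8 (median −0.13). Of these 2 lists 0 genes passed the threshold by edgeR, and DESeq2 called 1 cardiomyocyte and 2 epicardial markers. Cushion mesenchyme markers were higher for 5 of 8, with a summed level of 118 to 139 TPM in cKO and 115 to 146 TPM in controls. Of the 7 hepatic and yolk sac markers tested, 1 was higher and 6 were lower, with a median log2 fold change of −1.74. They summed to 12.9 to 20.1 TPM in cKO and 14.8 to 46.5 TPM in controls. By edgeR 5 had an unadjusted p under 0.05, all lower in cKO, and 0 passed the threshold, while DESeq2 called 2. Arterial markers were higher for 7 of 9, of which 1, Sema3g, passed the threshold (log2 fold change 1.31, SE 0.27). Sema3g held 22.2, 10.7, 6.34 and 18.2 CPM in cKO 1 to 4 and 4.36 to 6.49 CPM in controls. No arterial marker passed without cKO 1, cKO 4 or any 1 of the 4 controls. The arterial score was 0.40, 0.21, 0.10 and 0.39 in cKO 1 to 4 and −0.12 to 0.08 in controls. Venous and lymphatic markers were higher for 4 of 7.

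**Figure D4:**
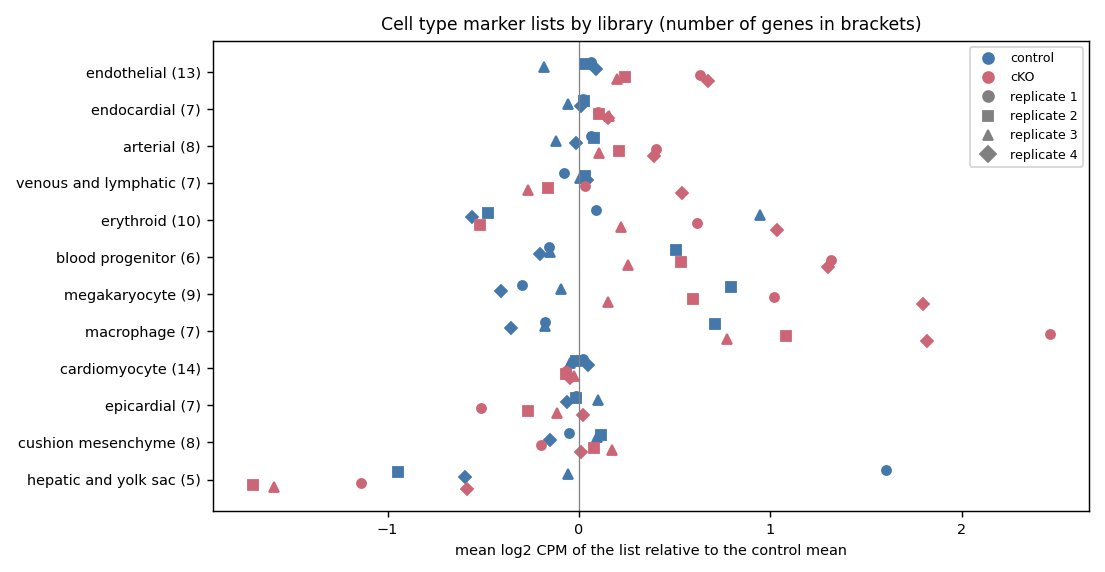
Mean log2 CPM of each marker list relative to the control mean, for genes with a mean of at least 1 CPM, by library. The macrophage, megakaryocyte and blood progenitor scores reach 2.46, 1.80 and 1.32 in cKO libraries 1 and 4, and the endothelial score reaches 0.67 in cKO 4.

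The log2 CPM of each gene relative to its control mean was compared with that of Sox17 over the 8 libraries. Of 14292 genes with a mean of at least 1 CPM outside the set, the 5 closest were Irf8, Laptm5, Ccdc88b, Itgb2 and Nav3. Their root mean square differences were 0.16, 0.17, 0.18, 0.19 and 0.20. This measure counts the size of the cKO difference, which the choice of the set used, so the ranking is a description. The log2 fold changes of the 5 were 1.07, 1.25, 1.13, 1.02 and 1.09, against 1.22 for Sox17. Irf8, a myeloid transcription factor, held 4.21, 2.04, 1.74 and 3.71 CPM in cKO 1 to 4 and 1.48, 1.87, 1.22 and 1.0 CPM in control 1 to 4. Itgb2 encodes the shared chain of the leukocyte integrins and Laptm5 a lysosomal membrane protein of blood cells. Laptm5 held 12.1, 6.90, 6.20 and 9.80 CPM in cKO 1 to 4 and 3.09 to 5.16 CPM in controls. Among the members Sox7, with a smaller log2 fold change of 0.44, was the nearest to Sox17, at a difference of 0.57, and 321 other genes were closer. The farthest was Etv2, with 1.20.

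Genes that the members are known to act through were taken from a list of 26 endothelial genes with described SOX or ETS control regions. Of these, 25 were higher in cKO and 1, Nrp1, was lower, with a median log2 fold change of 0.37. The threshold was passed by 6, all higher, where 0.515% of all genes did. These were the junction gene Cdh5 (306 ± 49.0 CPM in cKO and 213 ± 29.5 CPM in controls, log2 fold change 0.53, SE 0.11), the sialomucin Emcn (0.72, SE 0.13), the VEGF receptor Flt1 (0.50, SE 0.11), the adhesion genes Pecam1 (0.48, SE 0.11) and Icam2 (0.46, SE 0.087), and the receptor Tie1 (0.41, SE 0.092). In 13 of the 26 every cKO library was above every control, as for 3.14% of all genes. The claudin gene Cldn5 had the largest fold, with a log2 fold change of 1.35 (SE 0.36), from 2.13 ± 1.18 CPM in cKO and 0.84 ± 0.28 CPM in controls, and the guidance receptor Robo4 followed (0.90, SE 0.21). Neither passed the threshold. Egfl7, the most abundant of the list at 116 TPM in controls, had 0.35 (SE 0.095), and the lowest were Nrp1 (−0.02, SE 0.061) and Cxcr4 (0.08, SE 0.14). The 6 calls depended on single libraries: no gene of the list passed without cKO 1 or without any 1 of the 4 controls, 2 passed without cKO 4, and 16 passed without cKO 3. Every endothelial marker above except Plvap is also in this list, and every called gene but Icam2 is among those markers. The lists are therefore not separate evidence. The endothelial score was built almost wholly from genes that the members are known to act through, so it is not a reference independent of them.

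Other endothelial transcription factors were higher for 12 of 18 genes and lower for 6, at a median log2 fold change of 0.15, and the threshold was passed by 3. Bcl6b held 68.2, 39.0, 30.4 and 54.1 CPM in cKO 1 to 4 and 30.1, 26.4, 26.7 and 27.2 CPM in control 1 to 4. Its cKO 3 value was barely above control 1, and its log2 fold change was 0.80 (SE 0.17). Mecom, a zinc finger factor of blood stem cells and arteries, rose by 0.38 on the log2 scale (SE 0.073), and Nfatc1, the endocardial factor of valve formation, by 0.36 (SE 0.072). Nr2f2, which specifies veins, had 0.43 (SE 0.17), Klf2, a flow-responsive gene, −0.17 (SE 0.11) and Mef2c 0.03 (SE 0.075). Foxc1 had −0.27 (SE 0.081), and its 4 cKO libraries, at 14.5 to 16.5 CPM, were all below the controls, at 16.7 to 20.3 CPM. All 3 calls were lost without cKO 1, control 1, control 3 or control 4, and 1 of them, Mecom, held without control 2.

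Partners of TAL1 and GATA2 were higher for 14 of 17 genes, with a median log2 fold change of 0.07. Lmo2, the adaptor that bridges them, was the 1 that passed the threshold. It held 38, 26.2, 22.8 and 25.3 CPM in cKO 1 to 4 and 16.5, 17.3, 18.3 and 17.2 CPM in control 1 to 4, without overlap, and its log2 fold change of 0.70 (SE 0.12) was larger than that of any member but Sox17. It no longer passed without control 1 or control 4. Runx1, the master factor of definitive blood, had 1.15 (SE 0.37), with 2.21 ± 1.15 CPM in cKO against 1.0 ± 0.39 CPM in controls. The inhibitors Id1 and Id2 had −0.12 (SE 0.12) and 0.05 (SE 0.081), and Ssbp3 had −0.13 (SE 0.055).

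Other genes of the ETS and SOX families were listed for comparison. Of 21 other ETS genes tested, 12 were higher and 9 lower, at a median log2 difference of 0.09. By edgeR 0 passed the threshold and 11 had an unadjusted p under 0.05, and DESeq2 called 3. Spi1, the myeloid ETS factor, had 1.85 (SE 0.43), above that of any member, with 2.88, 0.60, 1.04 and 2.0 CPM in cKO 1 to 4 and 0.26 to 0.77 CPM in controls. Elk3 had 0.31 (SE 0.095), Elf2, the most abundant at 48.2 TPM, −0.0018 (SE 0.051), and Gabpa and Elf4 −0.15 (SE 0.052) and −0.13 (SE 0.058). Of 13 other SOX genes tested, 7 were higher and 6 lower, with a median of 0.03. Here 0 passed the threshold by edgeR or DESeq2, and 1 had an unadjusted p under 0.05 by edgeR. Sox5 had 0.29 (SE 0.12), Sox13 0.16 (SE 0.090), Sox8 −0.14 (SE 0.21), Sox11 −0.10 (SE 0.070), and Sox12, the most abundant at 46.0 TPM, −0.07 (SE 0.061).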

How the data were processed

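RNA from ventricular tissue was sequenced in 8 libraries, each from its own biological replicate. The values used were the raw, unnormalized read counts that the authors deposited for each gene symbol, and their deposited table of TPM values, with Ensembl identifiers and gene positions. The submitters' processing notes name FastQC, Trim Galore 0.6.7, HISAT2 2.2.1, StringTie 2.2.1, featureCounts and DESeq2, and the study's methods name the nf-core/rnaseq workflow. The notes name GRCm39, but the positions in the deposited table are those of GRCm38 and are printed as such. The strand setting of the counting is not given in the sources used here. No column was left out (0 not used).

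The test was that of edgeR 4.0.16 in R 4.3.3 (quasi-likelihood F test after TMM scaling, condition alone) on genes whose counts summed to at least 8, with Benjamini-Hochberg adjustment over all 26820 genes and a threshold of 0.05. CPM values are TMM-scaled, and log2 values used a prior count of 2. A list was scored by the average log2 CPM of its genes with a mean of at least 1 CPM, relative to the control mean. The fit was also run on simulated data, as were filterByExpr, DESeq2 size factors, DESeq2, the replicate block and limma with 1 added before the log. The other alternatives named next were not. The alternatives were filterByExpr, no filter, DESeq2 size factors, DESeq2 1.42.0, the replicate number as a block, limma 3.58.1 on log2(TPM + 1) and log2(TPM + 0.1), and each library left out in turn. The removal of cKO 1 and cKO 4 together was added after seeing the data.

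Named genes were the 10 members, Pkn2, the most abundant gene, the 2 highest, the 2 lowest and the called genes of each related list, and the 5 genes most like Sox17. Genes of the marker lists were named to show what a list holds. The members and all lists were chosen with earlier results of these data known. Counts of 47559845 to 56660938 per library set the counting error, and the spread between 4 libraries was used as the error throughout. No libraries were copies of each other (chi-square per degree of freedom 12.0 to 39.1 within groups). RefSeq promoters on GRCm38.p6 were matched for 5 of the 10 members, and that of Etv2 left 0 bases to scan.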

Additional observations from a re-analysis of the deposited data

Results flagged for a closer look

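Over the 20 groups formed by 10 members and 2 conditions, 2 held a library that stood apart from the other 3 by Dixon's criterion, where chance gives about 1 in 20. Sox18 in cKO 4, at 23.5 CPM, was far above the other cKO libraries, with 0.897 of the group's range between it and the next. Sox7 in control 3, at 24.9 CPM, was below the other controls, with 0.849 of the range between it and the next.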

How the results depend on the processing

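Over all genes 230 passed the threshold. The count was 205 with filterByExpr, 246 with DESeq2 size factors, 878 with no filter, 867 with DESeq2, 2 and 5 with limma on log2(TPM + 1) and log2(TPM + 0.1), 103 without both cKO 1 and cKO 4, and 67 (without control 1) to 744 (without cKO 3) with each library left out in turn. Of the members 3 passed. The count was 2 with filterByExpr, 7 with no filter, 6 with DESeq2, 0 with either limma fit, 0 without both cKO 1 and cKO 4, and 0 to 6 with each library left out, with 0 without cKO 1, control 1, control 3 or control 4 and 6 without cKO 3. At an unadjusted p under 0.05 there were 8 members in the fit reported, 7 in either limma fit, 7 or 8 in the fits with 0 members called that left out 1 library, and 4 without both cKO 1 and cKO 4. The share of all genes at that p was not counted, here or for the lists above. These counts describe members that were chosen with this contrast known. Of 10 called genes of the related lists, 6 passed with filterByExpr, 10 with DESeq2, 0 with either limma fit, 1 without cKO 1, 5 without cKO 4, 0 without control 1, 2 without control 2, 1 without control 3, 0 without control 4, and 10 without cKO 2 or cKO 3. The cause of these differences was not tested. With the replicate block 380 genes and 4 members passed, Erg being added. Libraries of the same number correlated at −0.19, −0.03, 0.01 and −0.14 in their deviations from the group means over 14302 genes. Libraries of unlike number were not compared in this way, so whether the numbers pair the libraries was not tested.

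Of 160 values of the members under the alternatives, 3 changed direction: Sox18 was −0.084 without cKO 4 (range −0.084 to 0.28 with each library left out) and −0.051 without cKO 1 and cKO 4, where Etv2 was 0.14. Of 624 values of 39 other named genes, 20 did, all in genes near 0. Elf2 was 0.0084 with filterByExpr, 0.0053 with no filter, 0.0041 with size factors, 0.0040 with DESeq2, −0.012 to 0.019 with each library left out, and 0.035 without cKO 1 and cKO 4. Mef2c was −0.0011 without cKO 1 and cKO 4. Nrp1 was 0.0085 and 0.0086 with limma. With each library left out, Id1 ranged from −0.20 to 0.011, Id2 from −0.019 to 0.12, Mef2c from −0.034 to 0.079 and Nrp1 from −0.057 to 0.022. Sox17 and Etv2 had the lowest counts among the members, at 132 to 550 and 108 to 247 per library.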
